A study of Homo sapiens with 30 samples.

Results

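HT and K422 are human cell lines of diffuse large B-cell lymphoma (DLBCL), labelled germinal center B-cell-like (GCB), and were compared here in the solvent alone. The members are the DMSO libraries of both lines, which are 8 of the 30 RNA-sequencing libraries of the study. HT gave 4 libraries, at 6, 12, 18 and 24 h in DMSO, and K422 gave 4 at the same times, so each line and time point is 1 library. The remaining libraries used below are 8 of HT and K422 at the same times in AZD8186, an inhibitor of PI3Kβ and PI3Kδ given at 0.5 µM, and 7 DMSO libraries of OCI-Ly10 and TMD8, DLBCL lines labelled activated B-cell-like (ABC). The labels give RPMI-1640 with serum as the medium of every library, whereas the study's methods name Iscove's modified Dulbecco's medium for OCI-Ly10 and TMD8. The study's methods describe its lines as engineered to carry a murine ecotropic receptor and a bacterial tetracycline repressor, which would be shared by every group here, controls included. Each group stands for 1 cell line, and no source states that its libraries came from separate cultures, so the p-values below cover the spread among these libraries alone, part or all of which may be technical.

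The labels put HT and K422 in the same class, and the question is how far their transcriptomes lay apart without the inhibitor, and in which genes. Values are CPM, the deposited expected counts scaled to a common library total with TMM, a normalization for library composition. For a single gene they are given in the order 6, 12, 18 and 24 h within each line. Means are given ± SD over the 4 libraries of a line. Fold changes are HT over K422 on the log2 scale, and a signed number alone in parentheses after a gene is its log2 fold change, which passed the test below unless said otherwise. Genes were tested with edgeR's quasi-likelihood test with time as a term, and p-values were adjusted by Benjamini and Hochberg's method over the 10963 genes that passed a filter on low counts. A gene is called here at an adjusted p under 0.05, and called 2-fold where the fitted change was also at least 2-fold. The SE given with a fold change is its absolute log2 value divided by the square root of the test's F statistic. It is no direct standard error of the fold. Where 1 line held few counts, as for MX1, CD24, BCL2 and BIRC3, it is smaller than the counting error. Library totals lay between 16991176 and 22190876 counts, with ribosomal protein genes at 15.9% to 17.1% of the counts in HT and 11.3% to 13.1% in K422, and ribosomal RNA at 1.46% to 2.06% in HT and 0.690% to 2.61% in K422. No library was a copy of another.

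GCB DLBCL resembles the B cells of germinal centers, where B cells divide rapidly, mutate their immunoglobulin genes and are selected through their B-cell receptor and through antigen presented on MHC class II. BCL6, a transcriptional repressor, holds this program, and tumours of this kind often carry lesions in BCL2 or CREBBP. PI3K enzymes turn a membrane lipid into the second messenger PIP3 downstream of the B-cell receptor.

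The labels were checked against marker genes. BCL6 measured 448, 483, 472 and 490.5 CPM in HT, against 433, 468, 471 and 476 CPM in K422, and the germinal center enzyme gene MME, which encodes CD10, measured 95.7, 98.8, 105 and 112 CPM in HT, against 93.3, 92.4, 95.4 and 104 CPM in K422. The ranges of both genes overlapped between the lines and neither passed the test (BCL6, log2 fold change 0.03, SE 0.05, adjusted p = 0.504, and MME, log2 fold change 0.09, SE 0.05, adjusted p = 0.103). PAX5, the transcription factor of B-cell commitment, averaged 217 ± 6.48 CPM in HT and 208 ± 46.8 CPM in K422 (SD, n = 4 each). CD79A and CD79B, the signaling chains of the B-cell receptor, averaged 1222 and 605 CPM in HT, against 848 and 616 CPM in K422. LMO2, a further germinal center marker, was at 0 in HT and at 0.249 to 0.542 CPM in K422. Defining markers of other cell types were near 0 in both lines for myeloid cells (CD14, CSF1R and MPO at most 0.157 CPM) and for stroma and epithelium (COL1A1, EPCAM and VWF at most 0.0525 CPM). The T-cell genes CD3D and CD3G in K422 and the matrix gene DCN in K422 stood out, and their values are given below.

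The lines differed in most genes. Of 10963 genes tested, 8669 were called (79.1%), 4321 higher in HT (39.4%) and 4348 lower (39.7%). A 2-fold difference was called for 1552 genes higher in HT (14.2%) and 1569 lower (14.3%), together 28.5% of the genes tested. In 7702 genes (70.3%) the HT libraries and the K422 libraries did not overlap. The median log2 fold change over all genes was -0.002 and the median of its absolute value was 0.51. Fitted changes reached 8-fold in 599 genes higher in HT and 507 lower, and 81 of the genes called higher 2-fold had no count in K422 while 107 of those called lower had none in HT. The main axis of a principal component analysis held 96.1% of the variance and separated the lines. Most genes passed the test, so the counts below use the 2-fold rule and are set against shares of 14.2% and 14.3% over all genes. The split depended on the scale: on log2(TPM + 1) values 847 genes were called higher 2-fold and 1303 lower, and the median over all genes was then -0.12 on that scale (-0.13 with a pseudocount of 0.1).

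Set beside the other pairs of lines, the count of differing genes was the lowest of the 6 pairs. In 1 fit over the 15 DMSO libraries of the 4 lines, 3571 of 12622 genes (28.3%) were called 2-fold between HT and K422 and 3648 (28.9%) between OCI-Ly10 and TMD8. The pairs of a GCB and an ABC line gave 5398 genes (HT and OCI-Ly10, 42.8%), 5121 (HT and TMD8, 40.6%), 5450 (OCI-Ly10 and K422, 43.2%) and 5285 (TMD8 and K422, 41.9%). No test compares these counts with each other, and if the medium differed as the methods state, class and medium cannot be told apart. A line is said to stand apart in a gene where it was called 2-fold in the same direction against each of the other three. Of the 1787 genes higher in HT in that fit, HT stood apart in 565 (31.6%) and K422 in 875 (49.0%). Of the 1784 lower in HT, HT stood apart in 728 (40.8%) and K422 in 628 (35.2%).

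**Figure D1:**
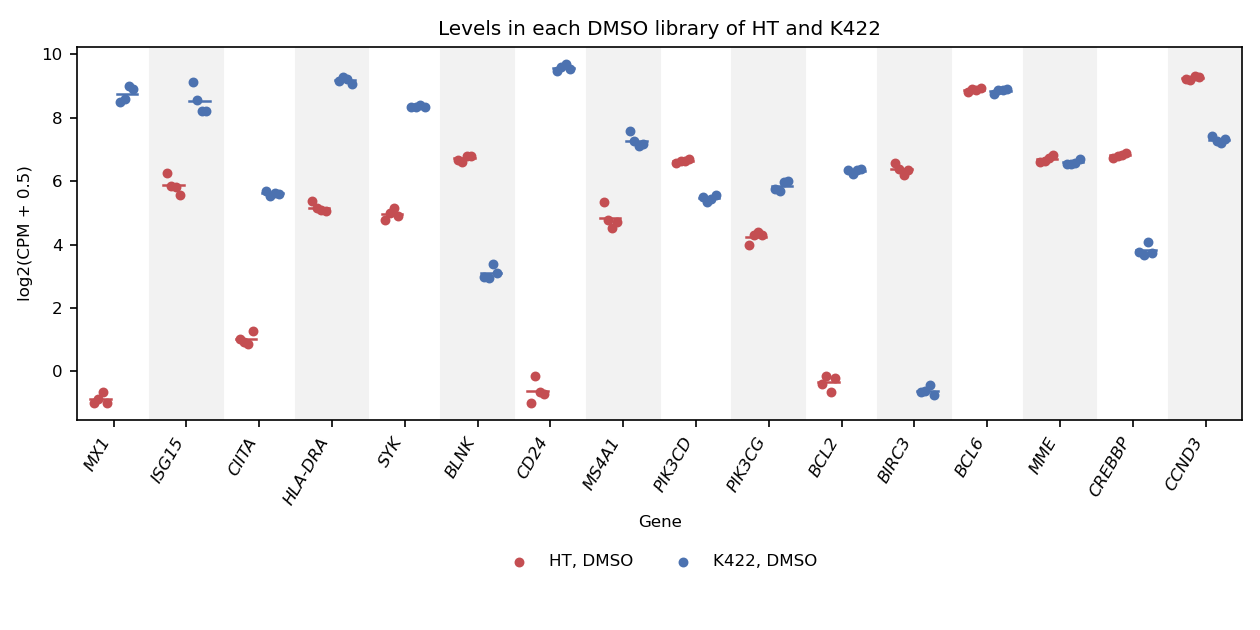
Levels of 16 genes in each DMSO library, as log2(CPM + 0.5), with HT at the left and K422 at the right of each gene. Points are the libraries at 6, 12, 18 and 24 h from left to right and the short line is their mean. The libraries of the lines overlap for BCL6 and MME and are separate for the other genes, with the widest gaps at MX1 and CD24.

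Interferon-stimulated genes were far lower in HT. These genes are switched on when interferon receptors activate a complex that contains STAT2 and IRF9 and binds a short sequence, the interferon-stimulated response element (ISRE), near their starts. Their products block viruses and sense viral RNA. Of 48 listed genes, 44 passed the filter on low counts. Of these, 3 were higher in HT and 38 lower by the 2-fold rule, with a median log2 fold change of -2.93 beside -0.002 over all genes tested. Bulk RNA cannot tell fewer cells carrying such a transcript from less of it in each cell.

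The promoters of 3 members across the range of this difference are shown with their ISRE letters in capitals. Each window holds 250 bases before and 50 after an annotated start, from RefSeq on GRCh38.p14. MX1 has 3 such windows, and the window shown was chosen among those that hold the motif. A gene is counted below as holding a motif where any of its windows does.
MX1 (chr21:41420308-41420607, plus strand): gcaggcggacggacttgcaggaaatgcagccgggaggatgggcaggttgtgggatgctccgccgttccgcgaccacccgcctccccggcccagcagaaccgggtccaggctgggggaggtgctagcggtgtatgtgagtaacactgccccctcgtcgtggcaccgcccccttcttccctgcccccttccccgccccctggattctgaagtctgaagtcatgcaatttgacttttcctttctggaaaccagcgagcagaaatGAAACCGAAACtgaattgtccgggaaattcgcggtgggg
IFITM1 (chr11:313790-314089, plus strand): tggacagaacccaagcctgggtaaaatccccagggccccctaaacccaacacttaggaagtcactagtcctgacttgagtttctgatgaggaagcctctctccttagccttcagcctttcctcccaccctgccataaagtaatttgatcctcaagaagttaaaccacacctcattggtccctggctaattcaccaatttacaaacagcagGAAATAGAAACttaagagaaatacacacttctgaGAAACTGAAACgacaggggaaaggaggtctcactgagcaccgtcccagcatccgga
ISG15 (chr1:1013247-1013546, plus strand): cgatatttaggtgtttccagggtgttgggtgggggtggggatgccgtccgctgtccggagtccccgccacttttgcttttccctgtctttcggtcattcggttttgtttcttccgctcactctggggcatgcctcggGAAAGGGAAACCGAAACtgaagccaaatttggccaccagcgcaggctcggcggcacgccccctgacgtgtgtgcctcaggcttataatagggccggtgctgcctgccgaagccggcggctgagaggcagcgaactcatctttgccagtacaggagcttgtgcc
The motif searched was GAAA and GAAAC with any 2 bases between them, on both strands. In the windows shown, MX1 has 1 match, 11 bases after the start, and IFITM1 has 2 matches, the outer one 40 bases before the start. ISG15 has 2 overlapping matches, the outer one 113 bases before the start. A promoter was matched for 37 of the 48 listed genes, and 21 of these (56.8%) held the motif, against 260 of 27305 genes with a promoter in the table (0.952%). Among listed genes called lower 2-fold it was present in 16 of 28 (57.1%), and 20 of 34 tested members (58.8%) held it. Of all tested genes with a promoter, 32 of 1190 called lower 2-fold held it (2.69%), 16 of them listed interferon-stimulated genes, and 16 of 1167 called higher (1.37%), against 1.17% of all 8609. Outside the list the share of the lower genes was 16 of 1162 (1.38%). A match describes the sequence and says nothing on binding in these cells.

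MX1, a GTPase that blocks influenza virus, lies at chr21:41420304-41459214 (GENCODE 29, GRCh38.p12). It measured 0, 0.0504, 0.141 and 0 CPM in HT, against 362, 386, 507 and 476 CPM in K422. HT held 4 counts in all, and every K422 library was at 362 CPM or more (log2 fold change -12.91, SE 0.14, adjusted p = 9.1e-22). IFITM1, which restricts the entry of viruses, measured 2.26, 1.01, 1.12 and 0.733 CPM in HT, against 214, 158, 153 and 160.2 CPM in K422 (log2 fold change -7.07, SE 0.11, adjusted p = 4.1e-20). The lines were separate at each time, and the highest value was that of K422 at 6 h. Reads of IFITM1, IFITM2 and IFITM3 are shared among near-identical genes, so their split is uncertain. ISG15, a ubiquitin-like protein, measured 76.5, 56.9, 56.3 and 47.3 CPM in HT, against 556, 375, 295 and 295 CPM in K422 (log2 fold change -2.65, SE 0.07, adjusted p = 2.7e-17). It was present in HT too, and within each line its value was highest at 6 h. CMPK2, a mitochondrial nucleotide kinase, had no count in HT and 45.6 ± 5.61 CPM in K422 and was at least 1217-fold lower in HT with the floor set at 3 counts over the 4 libraries.

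The RNA sensor OAS2 averaged 1.1 ± 0.253 CPM in HT and 51.3 ± 4.43 CPM in K422, OAS3 0.0651 ± 0.0994 CPM in HT and 47.5 ± 4.32 CPM in K422, and the secretory pathway protein IFI6 16 ± 4.11 CPM in HT and 169.6 ± 56.3 CPM in K422, with log2 fold changes of -5.54, -9.43 and -3.39. STAT2 and IRF9, which are both targets and carriers of the signal, were lower in HT (-1.28 and -1.79). Of the interferon receptor chains, IFNAR1 did not pass the test (log2 fold change 0.13, SE 0.07, adjusted p = 0.0877), and IFNAR2 was higher in HT (log2 fold change 1.48, SE 0.07, adjusted p = 7.7e-13), as was JAK1, the receptor's kinase, at 116, 122, 122 and 106 CPM in HT, against 20.4, 19.6, 16.7 and 15.3 CPM in K422 (log2 fold change 2.70, SE 0.07, adjusted p = 4.1e-17). TYK2, the other kinase, averaged 41.0 ± 3.50 CPM in HT and 64.9 ± 8.31 CPM in K422 (-0.66). The members called higher were IFIH1, an RNA sensor (3.44 ± 0.453 CPM in HT and 0.735 ± 0.0613 CPM in K422), LGALS3BP (177 ± 14 CPM in HT and 44.0 ± 9.87 CPM in K422) and IFIT5 (7.92 ± 0.596 CPM in HT and 2.74 ± 0.450 CPM in K422), with log2 fold changes of 2.21, 2.03 and 1.54. ISG20, BST2 and IFI35 were called lower but within 2-fold. In the 4-line fit, 25 of the members lower in HT had HT apart from the other three lines and 10 had K422 apart. MX1 averaged 82.0 CPM in OCI-Ly10 and 443 CPM in TMD8 and ISG15 45.1 CPM in OCI-Ly10 and 87.2 CPM in TMD8.

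**Figure D2:**
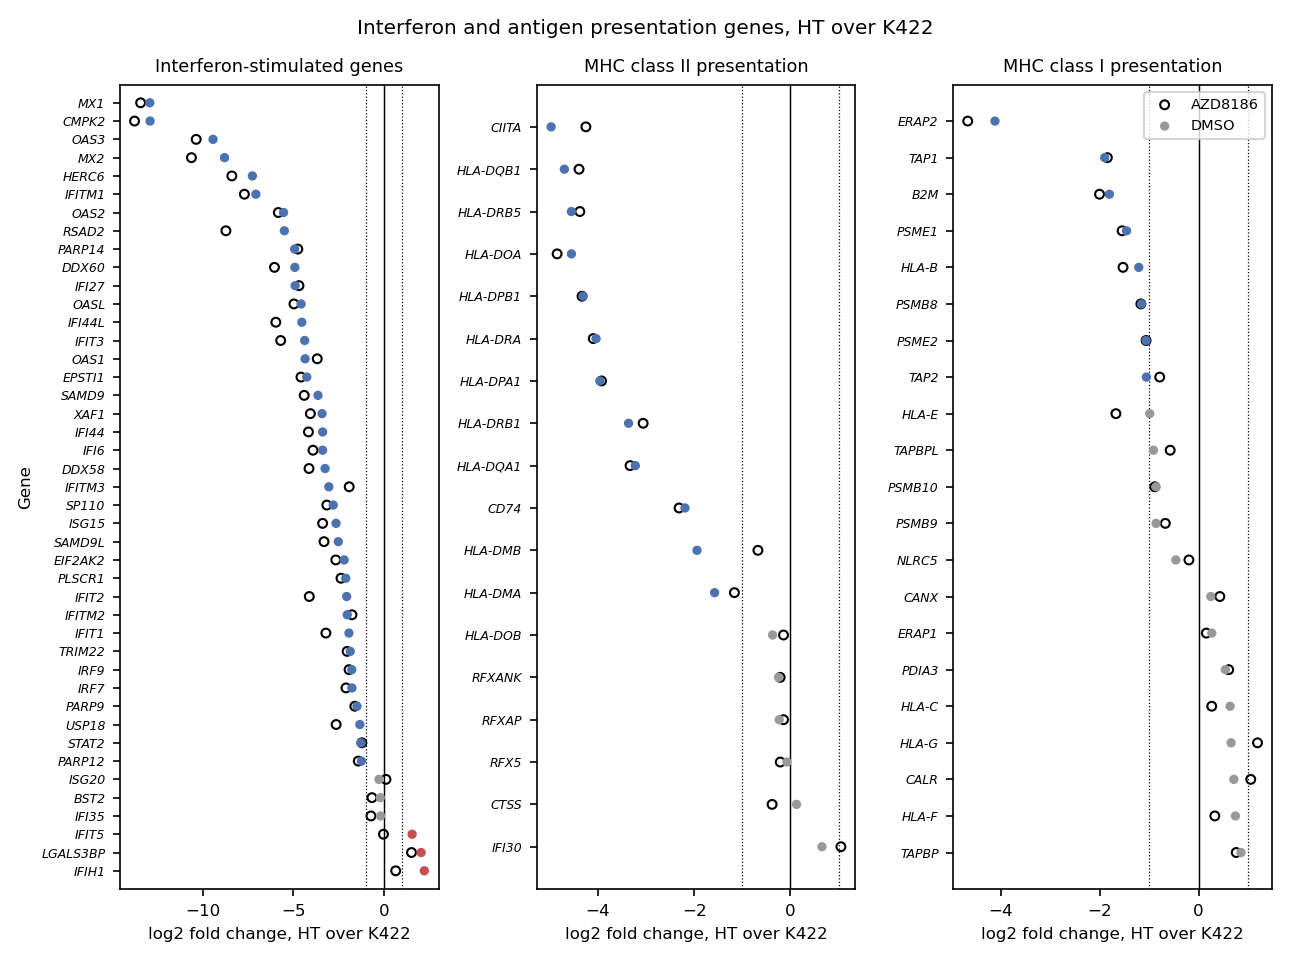
Log2 fold change, HT over K422, of tested genes of the lists for interferon-stimulated genes, MHC class II and MHC class I presentation. Filled points are the DMSO libraries, blue where called lower 2-fold, red where called higher 2-fold and grey otherwise, and open circles are the AZD8186 libraries. Of 43 interferon-stimulated genes drawn 37 are blue, as are 12 of 18 MHC class II genes and 8 of 21 MHC class I genes.

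MHC class II genes were lower in HT as well. Class II molecules present peptides to helper T cells, and CIITA is the transactivator that switches their genes on through factors bound at a conserved promoter module, which includes the Y box. Of 19 listed genes 18 passed the filter, and 0 were higher in HT and 12 lower 2-fold, with a median log2 fold change of -2.71. The promoter of HLA-DRB1, which carries a Y box, is shown with that box in capitals.
HLA-DRB1 (chr6:32589799-32590098, minus strand): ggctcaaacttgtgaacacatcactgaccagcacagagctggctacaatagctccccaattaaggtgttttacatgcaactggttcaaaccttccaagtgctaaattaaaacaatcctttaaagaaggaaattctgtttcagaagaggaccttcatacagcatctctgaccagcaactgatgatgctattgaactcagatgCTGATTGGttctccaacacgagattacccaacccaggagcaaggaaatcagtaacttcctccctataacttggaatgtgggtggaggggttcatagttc
The Y box was searched as CTGATTGG on both strands of windows of the same length. It was present in 5 of 15 listed class II genes with a promoter (33.3%), in 597 of 8609 tested genes (6.93%) and in 1298 of 27305 genes in the table (4.75%). In the window of HLA-DRB1 it began 49 bases before the start.

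CIITA, at chr16:10866222-10943021, measured 1.52, 1.41, 1.31 and 1.94 CPM in HT, against 51.7, 45.5, 49.0 and 48.0 CPM in K422 (log2 fold change -4.97, SE 0.11, adjusted p = 5.5e-18). HLA-DRA, the α chain of HLA-DR, measured 41.1, 34.8, 33.6 and 32.8 CPM in HT, against 575, 623, 598 and 539.5 CPM in K422 (log2 fold change -4.04, SE 0.06, adjusted p = 6.3e-20). CD74, the chaperone of class II molecules, measured 690.4, 630.0, 601 and 592 CPM in HT, against 3073, 2925, 2734 and 2744 CPM in K422 (log2 fold change -2.19, SE 0.05, adjusted p = 1.5e-17). For all of these the K422 libraries lay above the HT libraries. HLA-DPA1, HLA-DPB1, HLA-DQA1, HLA-DQB1, HLA-DRB1 and HLA-DRB5 had log2 fold changes from -4.70 to -3.22, and reads may be split unevenly among these similar, polymorphic genes. HLA-DMA and HLA-DMB, the chains of the peptide editor HLA-DM, had log2 fold changes of -1.58 and -1.94. HLA-DOA and HLA-DOB, the chains of HLA-DO, had log2 fold changes of -4.55 and -0.37. RFX5, RFXAP and RFXANK, the subunits of the factor that recruits CIITA, had log2 fold changes of -0.07, -0.23 and -0.25, and RFXANK alone of them passed the test. IFI30, a lysosomal thiol reductase that prepares antigen, was higher in HT within 2-fold (782 ± 26.5 CPM in HT and 498 ± 46.9 CPM in K422). In the other lines CIITA averaged 117 CPM in OCI-Ly10 and 25.9 CPM in TMD8, and HLA-DRA 0.0863 CPM in OCI-Ly10 and 439 CPM in TMD8, so that HT had the lowest CIITA of the 4 lines and OCI-Ly10 the lowest HLA-DRA.

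MHC class I genes were lower in HT or within 2-fold. All 22 listed genes passed the filter, 0 were higher in HT and 9 lower 2-fold, and the median log2 fold change was -0.89. B2M, the shared light chain, measured 333, 312, 290.1 and 289 CPM in HT, against 1217, 1055, 1004 and 1006 CPM in K422 (log2 fold change -1.80, SE 0.05, adjusted p = 1.1e-16). HLA-C averaged 352 ± 24.9 CPM in HT and 227 ± 27 CPM in K422 (0.64). The peptide transporter gene TAP1 averaged 69.3 ± 5.0 CPM in HT and 258 ± 16.9 CPM in K422 (-1.90), the proteasome activator gene PSME1 122 ± 11.1 CPM in HT and 335 ± 43.4 CPM in K422 (-1.46), and the trimming peptidase gene ERAP2 1.38 ± 0.519 CPM in HT and 23.8 ± 2.88 CPM in K422 (-4.12). The folding factors CALR, PDIA3 and TAPBP were called higher in HT within 2-fold. B2M in HT was also below the other lines, with 1306 CPM in OCI-Ly10 and 1066 CPM in TMD8.

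B-cell identity genes differed in both directions. Of 26 listed, 24 passed the filter, 5 were higher in HT and 4 lower 2-fold, with a median of -0.06. CD24, a surface glycoprotein of immature and germinal center B cells, measured 0, 0.403, 0.141 and 0.105 CPM in HT, against 712, 774, 829 and 749.5 CPM in K422 (log2 fold change -12.14, SE 0.14, adjusted p = 1.0e-21), with 13 counts over the HT libraries. MS4A1, which encodes CD20, the target of rituximab, measured 39.8, 27.1, 22.5 and 25.9 CPM in HT, against 189.7, 152, 138 and 143 CPM in K422 (log2 fold change -2.45, SE 0.06, adjusted p = 6.4e-17). CD180, a toll-like receptor homolog, averaged 12.8 ± 1.52 CPM in HT and 62.7 ± 0.404 CPM in K422 (-2.29), and the adaptor BANK1 had 1 count in HT (629.5-fold lower, 95% counting interval 113 to 24900.0). Higher in HT were CD22 (1.15), CD72 (2.91), CD40 (17.6 ± 0.717 CPM in HT and 2.52 ± 0.579 CPM in K422, 2.79) and VPREB3 (1.36). MS4A1 averaged 487 CPM in OCI-Ly10 and 629 CPM in TMD8, so HT was the lowest of the 4 lines.

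Genes of the first steps of B-cell receptor signaling differed in both directions. The kinases LYN and SYK phosphorylate the receptor, BLNK couples SYK to phospholipase C, and RASGRP proteins pass the signal to RAS. Of 32 listed genes 30 passed the filter, 2 were higher in HT and 9 lower 2-fold, with a median of -0.34. SYK measured 27, 31.5, 34.8 and 29.3 CPM in HT, against 322, 326, 337 and 326 CPM in K422 (log2 fold change -3.42, SE 0.06, adjusted p = 2.1e-19). BLNK had the opposite sign, at 102, 97.4, 111 and 112 CPM in HT, against 7.36, 7.16, 9.92 and 8.10 CPM in K422 (log2 fold change 3.70, SE 0.07, adjusted p = 1.5e-18). RASGRP3 likewise measured 208, 190.5, 196 and 191 CPM in HT, against 1.62, 2.15, 2.21 and 2.88 CPM in K422 (log2 fold change 6.47, SE 0.10, adjusted p = 3.0e-20), while RASGRP1 averaged 16.4 ± 1.13 CPM in HT and 41.5 ± 3.47 CPM in K422 (-1.34). The 2 genes called higher 2-fold were BLNK and RASGRP3. FCGR2B, the inhibitory Fc receptor, measured 10.9, 10.4, 12.2 and 12.2 CPM in HT, against 347, 352, 312 and 320.0 CPM in K422 (log2 fold change -4.86, SE 0.07, adjusted p = 2.6e-20), with the reservation that its family has near-identical copies. The phosphatase genes PTPN6 (98.8 ± 15.1 CPM in HT and 434 ± 41.4 CPM in K422, -2.14) and INPP5D, which encodes SHIP1 (66.5 ± 6.54 CPM in HT and 218 ± 10.1 CPM in K422, -1.71), were also lower in HT, whereas the inhibitory receptor genes CD22 and CD72, given above, were higher. LYN averaged 19.3 ± 1.96 CPM in HT and 94.4 ± 6.52 CPM in K422 (-2.29), SOS1 2.02 ± 0.0744 CPM in HT and 42.3 ± 1.77 CPM in K422 (-4.39), and PRKCB had 1 count in HT (239-fold lower, 95% counting interval 42.5 to 9468). BTK, MALT1 and PLCG2 were called lower within 2-fold. In the other lines SYK averaged 660.0 CPM in OCI-Ly10 and 429 CPM in TMD8, and BLNK 317 CPM in OCI-Ly10 and 116 CPM in TMD8, so HT was lowest for SYK and K422 for BLNK.

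The catalytic PI3K subunits, of which the inhibitor of the study targets p110β and p110δ, were present in both lines in DMSO. PIK3CD, at chr1:9651732-9729114, encodes p110δ and measured 95, 98.0, 99.1 and 104 CPM in HT, against 44.4, 40.5, 43.0 and 47.1 CPM in K422 (log2 fold change 1.18, SE 0.06, adjusted p = 7.6e-13). PIK3CB, which encodes p110β, measured 41.5, 40.2, 39.9 and 44.4 CPM in HT, against 31.4, 33.1, 32.1 and 31.7 CPM in K422 (log2 fold change 0.37, SE 0.07, adjusted p = 5.3e-05). HT was above K422 for both, with separate ranges, but by under 2-fold for PIK3CB. PIK3CG, which encodes p110γ, measured 15.5, 19.4, 20.4 and 19.1 CPM in HT, against 53.2, 51.4, 62.2 and 64.0 CPM in K422 (log2 fold change -1.63, SE 0.07, adjusted p = 2.8e-13). PIK3CA, which encodes p110α, measured 23.8, 22.1, 22.9 and 24.8 CPM in HT, against 20.4, 19.4, 18.2 and 21.8 CPM in K422 (log2 fold change 0.23, SE 0.08, adjusted p = 0.0102), and this small difference was not called without the HT or the K422 library at 18 h (0.20 in either case), on TPM values or in a fit of all 16 libraries of both treatments. Only PIK3CG among the 4 was lower in HT. PIK3CD in TMD8 and OCI-Ly10 was higher than in either line (219 CPM in OCI-Ly10 and 311 CPM in TMD8), and PIK3CG lower (7.26 CPM in OCI-Ly10 and 5.58 CPM in TMD8).

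PIK3R1, a regulatory subunit, measured 37.1, 41.8, 42.7 and 44.3 CPM in HT, against 17.9, 15.4, 18.5 and 16.5 CPM in K422 (log2 fold change 1.28, SE 0.08, adjusted p = 3.4e-11). PHLPP1, a phosphatase that removes phosphate from AKT, measured 45.5, 48.2, 49.9 and 47.8 CPM in HT, against 8.21, 7.46, 9.51 and 8.30 CPM in K422 (log2 fold change 2.51, SE 0.08, adjusted p = 1.3e-15). AKT1 measured 185, 156, 175 and 162 CPM in HT, against 300.2, 324, 304 and 281 CPM in K422 (log2 fold change -0.84, SE 0.06, adjusted p = 1.1e-10). Of 41 listed genes of this pathway 32 passed the filter, 7 were higher in HT and 2 lower 2-fold, and the median was 0.22. The genes called higher 2-fold also include TSC1, DEPTOR, SGK3 and INPP4A (1.16, 1.12, 1.61 and 1.13), which encode brakes of mTOR, an AKT-related kinase and a lipid phosphatase. AKT2 averaged 187 ± 10.1 CPM in HT and 162 ± 7.14 CPM in K422 (0.20). MTOR (-0.42), RPTOR (0.55) and RICTOR (-0.23) were within 2-fold, and RICTOR did not pass the test.

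**Figure D3:**
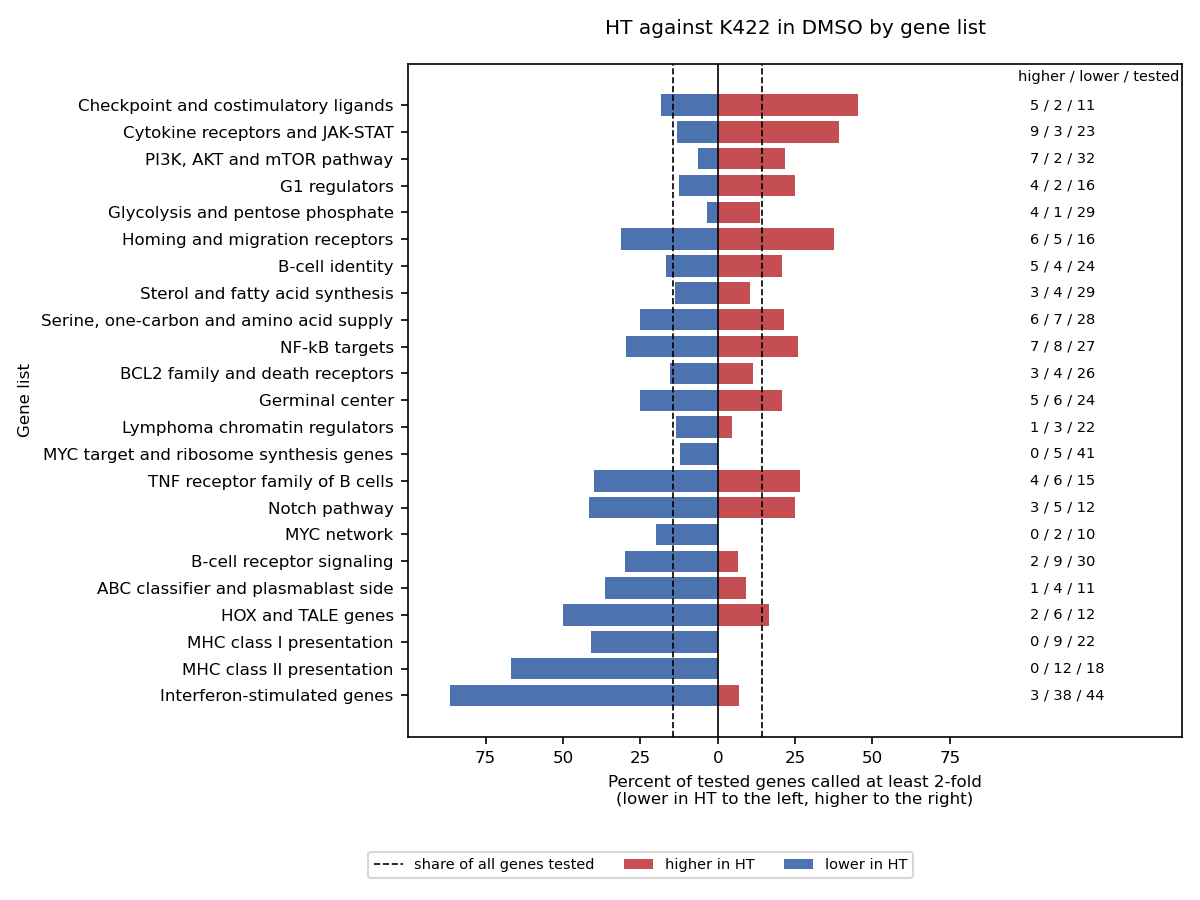
Share of each gene list called at least 2-fold, in percent of its tested genes, lower in HT to the left in blue and higher in HT to the right in red, with the counts at the right edge. Dashed lines mark the shares over all genes tested, 14.2% higher and 14.3% lower. The lists for interferon-stimulated genes and MHC class II presentation reach farthest to the left. Lists with fewer than 10 tested genes and 1 further list are not drawn.

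The survival genes BCL2 and BIRC3 differed by large factors in opposite senses. BCL2, the anti-apoptotic gene at chr18:63123346-63320128, measured 0.262, 0.403, 0.141 and 0.366 CPM in HT, against 80.4, 74.9, 80.3 and 83.8 CPM in K422 (log2 fold change -8.07, SE 0.14, adjusted p = 1.1e-19). BIRC3, at chr11:102317450-102339403, which encodes the ubiquitin ligase cIAP2 of the NF-κB pathway, measured 94.4, 82.8, 73.0 and 81.9 CPM in HT, against 0.135, 0.150, 0.245 and 0.0994 CPM in K422 (log2 fold change 8.95, SE 0.14, adjusted p = 4.3e-20). Neither pair of ranges came near the other. FAS, the death receptor, measured 0.472, 0.706, 0.515 and 0.942 CPM in HT, against 34.3, 39.5, 36.3 and 36.7 CPM in K422 (log2 fold change -5.80, SE 0.14, adjusted p = 1.5e-17). The Apaf-1 gene APAF1 averaged 6.82 ± 1.58 CPM in HT and 21.8 ± 6.16 CPM in K422 (-1.67), and BCL2L2 6.47 ± 0.536 CPM in HT and 18.6 ± 1.67 CPM in K422 (-1.53). BBC3, which encodes PUMA, averaged 3.24 ± 0.629 CPM in HT and 0.193 ± 0.0959 CPM in K422 (4.02), and BIK had 1 count in K422 (293-fold higher, 95% counting interval 52.1 to 11612). MCL1, BCL2L1 and BCL2L11 (BIM) differed within 2-fold, at 0.29, 0.27 and 0.91. Of 33 listed genes 26 passed the filter and 3 were higher in HT and 4 lower 2-fold, with a median of 0.10. In the 4-line fit BCL2 averaged 202 CPM in OCI-Ly10 and 92.3 CPM in TMD8, which left HT alone at under 1 CPM, and BIRC3 averaged 62.7 CPM in OCI-Ly10 and 69.0 CPM in TMD8, which left K422 alone there.

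NF-κB genes differed in both directions. Subunit genes of the alternative pathway were higher in HT: NFKB2 measured 41.6, 37.3, 32.3 and 34.1 CPM in HT, against 3.88, 3.76, 2.29 and 3.43 CPM in K422 (log2 fold change 3.46, SE 0.10, adjusted p = 4.8e-16), and RELB averaged 15.1 ± 1.75 CPM in HT and 1.28 ± 0.536 CPM in K422 (3.58). NFKB1 averaged 51.4 ± 2.66 CPM in HT and 14.9 ± 0.863 CPM in K422 (1.79), whereas REL was lower (4.73 ± 0.788 CPM in HT and 16.2 ± 3.11 CPM in K422, -1.77). Lymphotoxin and TNF genes were lower in HT. LTA, which encodes lymphotoxin α, measured 4.62, 2.87, 3.37 and 2.83 CPM in HT, against 256, 245, 180.5 and 154 CPM in K422 (log2 fold change -5.92, SE 0.09, adjusted p = 3.6e-20), and in both lines the values at 6 h were above those at 24 h. LTB averaged 6.44 ± 1.14 CPM in HT and 151 ± 24.2 CPM in K422 (-4.55), and TNF 0.557 ± 0.118 CPM in HT and 13.0 ± 1.59 CPM in K422 (-4.54). TRAF3, which holds the alternative pathway in check, averaged 32.3 ± 3.57 CPM in HT and 151 ± 9.67 CPM in K422 (log2 fold change -2.23, SE 0.06, adjusted p = 4.8e-17). CD70 (19.1 ± 1.38 CPM in HT and 0.920 ± 0.135 CPM in K422) and TNFSF13, which encodes APRIL (13.3 ± 0.90 CPM in HT and 1.66 ± 0.384 CPM in K422), were higher in HT. Of 40 listed NF-κB genes 27 passed the filter, 7 were higher in HT and 8 lower 2-fold, with a median of 0.27. Among 25 listed genes of the TNF family 15 passed, 4 were higher in HT and 6 lower, with a median of -0.23, and the lists share genes such as LTA and LTB.

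**Figure D4:**
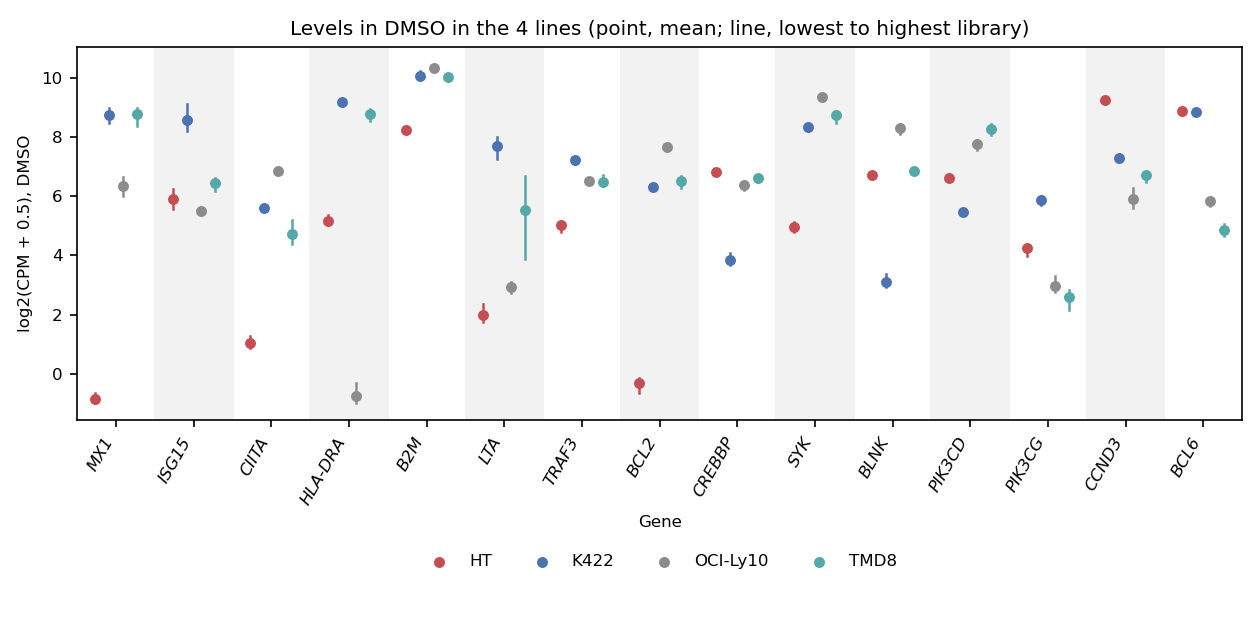
Levels of 15 genes in the DMSO libraries of the 4 lines, as log2(CPM + 0.5), with HT and K422 followed by OCI-Ly10 and TMD8. Points are means and vertical lines run from the lowest to the highest library, 4 per line and 3 in TMD8. HT is lowest for MX1, CIITA, BCL2 and SYK, and K422 is lowest for CREBBP, BLNK and PIK3CD.

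Germinal center genes outside BCL6 and MME were not uniform. Of 25 listed 24 passed the filter, 5 were higher in HT and 6 lower 2-fold, with a median of 0.12. CD38, an ectoenzyme of germinal center B cells, averaged 17.2 ± 2.15 CPM in HT and 0.382 ± 0.204 CPM in K422 (5.48). ASB13 had 1 count in HT (2076-fold lower, 95% counting interval 372 to 82038), and MEF2C averaged 37.1 ± 1.16 CPM in HT and 93.3 ± 12.6 CPM in K422 (-1.32). Of 22 listed genes of the ABC and plasmablast side 11 did not pass the filter, IRF4 and PRDM1 among them. Of the 11 that passed, 1 was higher in HT and 4 lower 2-fold. SDC1, the plasma cell marker CD138, had 1 count in HT and averaged 54.8 CPM in K422 (4364-fold lower, 95% counting interval 783 to 172420.0), LIMD1 averaged 0.258 ± 0.156 CPM in HT and 10.1 ± 1.76 CPM in K422 (-5.29), and the RNA-binding protein gene IGF2BP3 13.9 ± 0.991 CPM in HT and 67.3 ± 4.40 CPM in K422 (-2.28). Plasma cell genes differed in both directions: of 11 listed 8 passed the filter, 3 were higher in HT and 2 lower 2-fold, with a median of 0.29. MZB1 averaged 59.2 ± 8.76 CPM in HT and 4.0 ± 0.753 CPM in K422 (3.89) and JCHAIN 51.0 ± 6.14 CPM in HT and 16.5 ± 5.50 CPM in K422 (1.66). TNFRSF17 lay the same way as SDC1, at 1.31 to 2.34 CPM in HT and 3.61 to 4.18 CPM in K422. The plasma cell regulator PRDM1 was at most 0.150 CPM. IGLL1, a surrogate light chain gene, averaged 436 ± 47.3 CPM in HT and 46.3 ± 10.5 CPM in K422 (3.25). Its sequence is close to that of IGLL5 (2.03), so their split is uncertain.

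The list of chromatin regulators was not limited to genes often mutated in GCB DLBCL and holds partner genes such as EED. Of 22 listed and tested, 1 was higher in HT and 3 lower 2-fold, with a median of -0.41. Together these were 18.2% of the list, against 28.5% of all genes tested. CREBBP, a histone acetyltransferase at chr16:3725054-3880726, measured 106, 109.8, 113 and 119 CPM in HT, against 13.2, 12.3, 16.6 and 12.9 CPM in K422 (log2 fold change 3.02, SE 0.08, adjusted p = 2.7e-17). K422 lay below the other three lines, as OCI-Ly10 and TMD8 averaged 82.2 and 98.0 CPM. Its paralog EP300 averaged 58.9 ± 1.36 CPM in HT and 91.3 ± 14 CPM in K422 (-0.62). EZH2, the methyltransferase of polycomb repressive complex 2, averaged 76.1 ± 5.34 CPM in HT and 86.7 ± 1.65 CPM in K422 (log2 fold change -0.19, SE 0.06, adjusted p = 0.00662, not called without either 6 h library or with all 16 libraries), and its partner EED 56.8 ± 2.89 CPM in HT and 155 ± 9.74 CPM in K422 (log2 fold change -1.45, SE 0.06, adjusted p = 2.5e-14). The deacetylase gene HDAC9 had no count in HT and 1.1 CPM in K422 (at least 29.6-fold lower), and TET2 averaged 2.51 ± 0.345 CPM in HT and 5.73 ± 1.18 CPM in K422 (-1.18). KMT2D did not pass the test (log2 fold change -0.09, SE 0.07, adjusted p = 0.268).

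MYC measured 162, 176, 176 and 177 CPM in HT, against 259, 242, 276 and 267 CPM in K422 (log2 fold change -0.59, SE 0.05, adjusted p = 3.5e-09). The K422 libraries were higher, by under 2-fold. Of 41 listed MYC targets and ribosome synthesis genes, all tested, 0 were higher in HT and 5 lower 2-fold, with a median of -0.15. The lower ones were POLR1B, a subunit of RNA polymerase I (-1.39), SORD (-1.62), LYAR (-1.01), ODC1, which makes polyamines (-1.0), and NIFK (-1.0). The MYC antagonists MXD1 (-1.74) and MXD4 (-1.26) were lower in HT too. POLR1B, LYAR, MXD1 and MXD4 lie in windows of chromosomes 2 and 4 that are described below as lower in HT. Among 20 regulators of G1, 16 passed the filter, 4 were higher in HT and 2 lower 2-fold, with a median of 0.18. CCND3, a D-type cyclin, measured 594, 585, 638 and 627 CPM in HT, against 172, 153, 146 and 159 CPM in K422 (log2 fold change 1.96, SE 0.06, adjusted p = 2.4e-16), and HT was the highest of the 4 lines. CDK6, its partner kinase, averaged 23.3 ± 2.93 CPM in HT and 63.2 ± 11.4 CPM in K422 (-1.43), CCNE1 9.06 ± 1.45 CPM in HT and 23.8 ± 1.93 CPM in K422 (-1.40), and E2F2 81.1 ± 4.13 CPM in HT and 38.4 ± 4.53 CPM in K422 (1.08). CDKN1C, an inhibitor of these kinases, was at 1.61 CPM in HT with no count in K422 (at least 46.6-fold higher).

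Genes of homing and migration differed in both directions. Of 33 listed 16 passed the filter, and 6 were higher in HT and 5 lower 2-fold, with a median of 0.18. ITGAL and ITGB2 encode the chains of the integrin LFA-1, and they differed in opposite senses: ITGAL averaged 16.2 CPM in HT with 3 counts in K422 (469.6-fold higher, 95% counting interval 160.3 to 2280.1), and ITGB2 averaged 53.2 ± 7.36 CPM in HT and 442 ± 14.4 CPM in K422 (-3.06). ICAM2, a ligand of LFA-1, averaged 32.6 ± 1.54 CPM in HT and 0.582 ± 0.250 CPM in K422 (5.79), and CXCR5, the follicle homing receptor, 11 ± 0.281 CPM in HT and 0.226 ± 0.156 CPM in K422 (5.55). GNA13 and ARHGEF1 act in 1 pathway that confines germinal center B cells. GNA13 averaged 381 ± 32.4 CPM in HT and 122 ± 11.6 CPM in K422 (1.64) and ARHGEF1 11.6 ± 0.710 CPM in HT and 159 ± 8.23 CPM in K422 (-3.78), while their receptors S1PR2 (0.26) and P2RY8 (0.76) were within 2-fold. Among the genes of checkpoint and costimulatory molecules, 11 of 29 passed the filter and 5 were higher in HT and 2 lower, with ICOSLG (3.08) and VSIR (2.82) higher in HT and CD86 (-1.59) lower. CD274, which encodes PD-L1, did not pass.

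Of the cytokine receptors and JAK-STAT genes more were higher in HT than lower. Of 34 listed 23 passed the filter and 9 were higher in HT and 3 lower 2-fold, with a median of 0.13, and in 8 of the 9 higher genes K422 stood apart from the other three lines. IL10RA, the ligand-binding chain of the interleukin-10 receptor, measured 309.8, 327, 329 and 279 CPM in HT, against 25.4, 26.7, 26.3 and 26.1 CPM in K422 (log2 fold change 3.57, SE 0.06, adjusted p = 7.7e-20). STAT3, which acts below it, averaged 43.9 ± 1.76 CPM in HT and 13.6 ± 1.47 CPM in K422 (1.69). JAK2 and JAK3 were higher with log2 fold changes of 1.54 and 3.60. IL10RA lies in the stretch of chromosome 11 described below.

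Metabolic genes held a few large differences. Among 30 genes of glycolysis and the pentose phosphate pathway 29 passed the filter and 4 were higher in HT and 1 lower 2-fold, with a median of -0.21. SLC2A5, a fructose transporter, averaged 27.3 ± 4.12 CPM in HT and 0.183 ± 0.0586 CPM in K422 (7.18), SLC16A3, a lactate exporter, 25.4 ± 1.75 CPM in HT and 0.239 ± 0.295 CPM in K422 (6.69), ENO2 160.0 ± 13.6 CPM in HT and 25.2 ± 1.62 CPM in K422 (2.66) and HK2 65.9 ± 3.82 CPM in HT and 189 ± 26.1 CPM in K422 (-1.51). PFKFB2 had no count in K422. In sterol and fatty acid synthesis 29 of 30 passed, 3 were higher in HT and 4 lower, and the median was 0.21. The 4 lower genes lie in fatty acid synthesis and desaturation: FADS2 (2.08 ± 0.402 CPM in HT and 152 ± 21.3 CPM in K422, -6.18), FADS1 (-2.31), ELOVL6 (-1.71) and FASN (-1.43). The 3 higher ones, MVK, MVD and SC5D (1.05, 1.10 and 1.51), belong to sterol synthesis. The genes called 2-fold were 24.1% of this list, against 28.5% of all genes tested. The other 22 were within 2-fold or not called, and a split between the branches was not tested. Of the genes of serine, one-carbon and amino acid supply 28 of 30 passed, 6 were higher in HT and 7 lower, with ASL (-2.03) and SLC43A1 (-1.80) lower and ATF4 (1.25) higher. CBS averaged 42.8 ± 3.93 CPM in HT and 0.0838 ± 0.0512 CPM in K422 (8.95), but RSEM divides its reads with the near-identical CBSL, which was higher too.

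The genes of largest difference were close to on and off, as a ranking by fold change favours genes with no count in 1 line. Such genes passed the filter on low counts through the other line alone. Among genes with at least 10 CPM in the higher line, 13 of the 15 leading genes higher in HT had no count in K422, the exceptions being ACTL8 with 8 counts and CD9 with 1. Of the 15 leading genes lower in HT 11 had no count in HT, and MX1, DUSP4, SPX and MET had 1 to 4. SSTR1, a somatostatin receptor, measured 71.6, 80.9, 70.9 and 68.4 CPM in HT, against 0, 0, 0 and 0 CPM in K422, at least 2109.7-fold higher. CKMT1A and CKMT1B, near-identical genes of mitochondrial creatine kinase whose reads cannot be split with certainty, averaged 67.5 and 21.0 CPM in HT. ACTL8, an actin-like gene, averaged 461 ± 15.6 CPM in HT and 0.0916 ± 0.0356 CPM in K422, and CD9, a tetraspanin, had 1 count in K422 (5409.9-fold higher, 95% counting interval 971 to 213720.0). On the other side, NLGN4X, a synaptic adhesion gene, measured 0, 0, 0 and 0 CPM in HT, against 151, 132, 172 and 154 CPM in K422, at least 4064-fold lower in HT. DUSP4, which inactivates MAP kinases, had 1 count in HT and 194 CPM in K422 (15419-fold lower, 95% counting interval 2767 to 609070.0), and the receptor kinase gene MET had 1 count in HT and 139 CPM (11028-fold lower, 95% counting interval 1979 to 435630.0). BCR, the kinase gene known from the fusion with ABL1, had no count in HT (at least 1473-fold lower), and the calmin gene CLMN had none either (at least 2189.6-fold).

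Of 33 listed HOX and TALE genes 12 passed the filter and 2 were higher in HT and 6 lower 2-fold, with a median of -1.40. HOXA7, HOXB4 and HOXC4 had no count in HT and averaged 14.9, 8.39 and 23.1 CPM in K422, at least 394-fold, 221-fold and 612-fold lower. HOXD8 had no count in K422 and 2.66 CPM in HT. In the Notch pathway 12 of 18 genes passed and 3 were higher in HT and 5 lower. The Notch target HES1 had no count in HT and 7.98 CPM in K422 (at least 211-fold lower), NOTCH2 averaged 0.234 ± 0.335 CPM in HT and 5.26 ± 1.16 CPM in K422 and NOTCH1 3.11 ± 0.413 CPM in HT and 0.514 ± 0.110 CPM in K422. Of 43 cancer-testis genes 3 passed: MAGEA1 with 2 counts in HT and 78.4 CPM in K422, its near-identical relative MAGEA3, and DDX43, which had 7.03 CPM in HT and no count in K422.

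Some genes of other cell types were high in 1 line. CD3G measured 0.787, 0.605, 0.796 and 0.838 CPM in HT, against 63.7, 69.0, 71.1 and 76.3 CPM in K422 (log2 fold change -6.52, SE 0.11, adjusted p = 1.2e-19), and CD3D averaged 0.700 ± 0.173 CPM in HT and 26.4 ± 3.38 CPM in K422 (-5.22), whereas CD3E, the remaining chain, averaged 0.551 ± 0.275 CPM in HT and 0.731 ± 0.253 CPM in K422. LCK, a kinase of T cells, averaged 80.2 ± 6.03 CPM in HT and 6.50 ± 0.557 CPM in K422 (3.63). Summed over the 15 T-cell genes in the files, the level was 75.7 to 88.7 CPM in HT and 98.0 to 107 CPM in K422, with 6 of the 15 at 0 in every HT library and 6, not all of them the same genes, at 0 in every K422 library. DCN, which encodes the matrix protein decorin, measured 1.21, 0.554, 0.702 and 0.785 CPM in HT, against 367, 313, 270.5 and 255 CPM in K422 (log2 fold change -8.53, SE 0.10, adjusted p = 9.4e-22). The 15 stroma and epithelium genes summed to 1.62 to 3.73 CPM in HT and 257 to 369.9 CPM in K422, nearly all of it DCN, with COL1A1 and EPCAM at 0 in each K422 library.

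Neighbouring genes shared a direction in parts of some chromosomes, a pattern chosen after the values were seen. Positions come from GENCODE 29 (GRCh38.p12), which matched 10834 of the 10963 genes by symbol (98.8%), 10476 of them on chromosomes 1 to 22. Among 190 windows of 10 Mb with at least 20 genes, the median log2 fold change was within 0.5 of 0 in 168, over 1 in 2 and under -1 in 5. The highest was at 110 to 120 Mb of chromosome 11, where 59 of 69 genes were higher in HT and 53 called 2-fold (76.8%), with a median of 2.22. The lowest were at 70 to 80 Mb and 60 to 70 Mb of chromosome 2, with medians of -1.48 and -1.46, where 38 of 48 and 32 of 44 genes were called lower 2-fold. HK2 and REL, given above as lower in HT, lie in these windows, in that order. The window at 60 to 70 Mb of chromosome 10 had a median of 1.17, with 16 of 26 genes called higher 2-fold. By whole chromosome the medians ran from -0.53 (chromosome 4, 359 genes), -0.48 (chromosome 14, 369) and -0.46 (chromosome 2, 692) to 0.30 (chromosome 10, 406).

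On chromosome 11 the higher genes formed separate stretches. The ends of these stretches and of the neighbouring groups were set after the values were seen. Their counts and medians, and the contrast with the neighbours, therefore describe that choice and are no test. From ALG9 to USP28 (chr11:111782195-113875570) 15 of 15 tested genes were higher in HT, 14 of them called 2-fold, with a median of 2.62. From BUD13 to NECTIN1 (chr11:116748170-119729084) 41 of 45 were higher, 38 called 2-fold and 2 called lower 2-fold, with a median of 2.28. The 8 genes before ALG9 had a median of -0.38, the 4 between the stretches -0.19 and the 8 after NECTIN1 0.12. PPP2R1B, the gene before ALG9, averaged 309 CPM in HT and 552 CPM in K422 (-0.84), and ALG9, a mannosyltransferase gene, 83.1 CPM in HT and 13.5 CPM in K422 (2.62). RPS25, a ribosomal protein gene in the longer stretch, measured 3425, 3304, 3133 and 3020.0 CPM in HT, against 395, 435, 334 and 337 CPM in K422 (log2 fold change 3.11, SE 0.06, adjusted p = 1.0e-18), and its reads may be shared with processed copies. ARCN1, a coat protein gene of Golgi vesicles, measured 399, 378, 386 and 415 CPM in HT, against 72.9, 65.8, 75.3 and 81.8 CPM in K422 (log2 fold change 2.42, SE 0.05, adjusted p = 4.2e-18). For both genes the lines lay far apart. In the longer stretch CBL (0.35), DDX6 (0.85) and RNF26 (0.88) were higher within 2-fold. USP2 (-0.34) was lower within 2-fold, CD3D and CD3G are the T-cell genes high in K422, and CD3E did not pass the test (log2 fold change -0.43, SE 0.36, adjusted p = 0.271).

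Against the ABC lines, HT was higher over both stretches, and K422 was lower by a smaller amount. Over ALG9 to USP28 the median log2 difference of mean levels was 1.88 for HT minus OCI-Ly10 and 2.33 for HT minus TMD8, and -0.42 and -0.08 for K422 minus the same lines. Over BUD13 to NECTIN1 the medians were 1.23 and 1.88 for HT and -0.78 and -0.14 for K422. In AZD8186 the medians of HT over K422 were 2.64 and 2.38. CXCR5 and IL10RA, described above, lie in the longer stretch, as does KMT2A, a gene known from leukemia fusions (1.13). Not every gene followed the medians: CXCR5 in HT lay below both ABC lines. Its log2 difference was -4.74 for HT minus OCI-Ly10 and -3.38 for HT minus TMD8. IL18 averaged 14.7 CPM in HT with no count in K422.

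**Figure D5:**
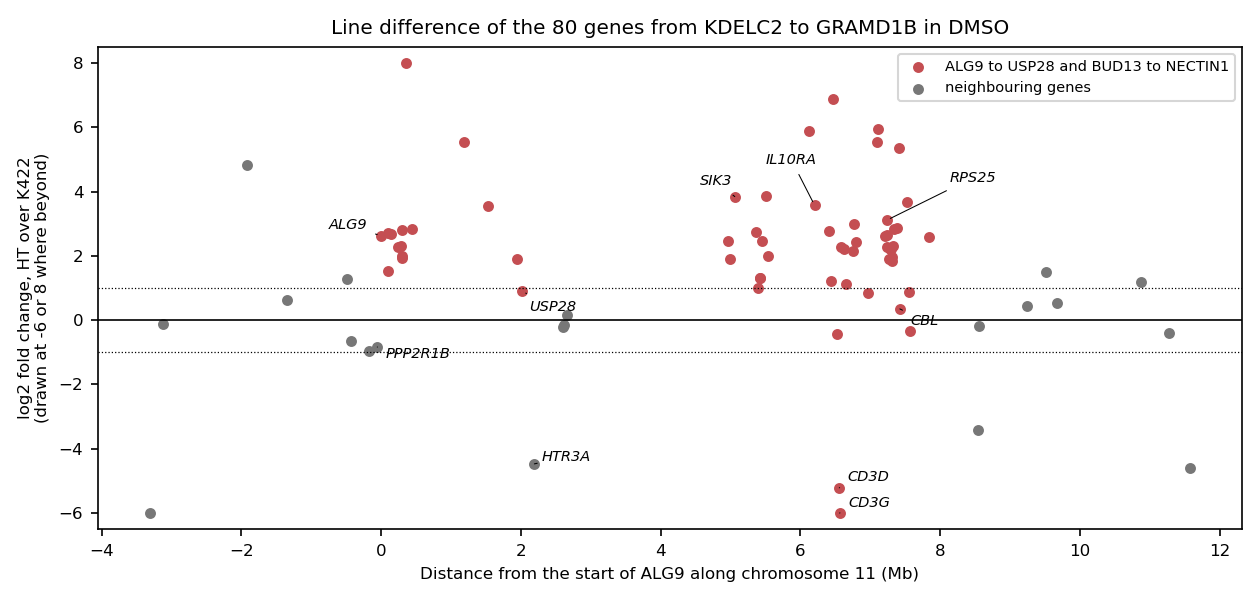
Log2 fold change, HT over K422 in DMSO, of 80 tested genes from KDELC2 to GRAMD1B by the distance of each gene's start from that of ALG9 along chromosome 11, in Mb. Red points are the stretches from ALG9 to USP28 and from BUD13 to NECTIN1, and grey points their neighbours. Most red points lie above 1, with medians of 2.62 and 2.28, CD3D and CD3G lie far below 0, and the grey points lie on both sides of 0.

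To see whether these differences appear in libraries that the comparison did not use, the 4 HT and 4 K422 libraries in AZD8186 were fitted separately. There 11110 genes were tested, 1528 called higher 2-fold in HT (13.8%) and 1627 lower (14.6%). Of the 1552 genes higher in DMSO, 1290 were also higher 2-fold in AZD8186 (83.1% of the DMSO list and 84.4% of the AZD8186 list), and of the 1569 lower, 1321 were also lower (84.2% and 81.2%). They are the same cell lines, so this repeats the libraries and not the lines. The interferon-stimulated genes had a median of -3.54 with 38 called lower, and the MHC class II genes a median of -2.69 with 11 called lower, 11 of them in both. MX1, CIITA and BCL2 had log2 fold changes of -13.42, -4.25 and -9.41 in AZD8186. Chosen after their values were seen, BACH2, a repressor of plasma cell differentiation, and the kinase gene DYRK1B were called higher 2-fold in DMSO (1.87 and 1.12) and lower in AZD8186 (-0.50 and -0.35), and the change between the treatments was not tested for them.

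Next, whether the line difference moved with culture time was tested as the interaction of line and late time (18 and 24 h) against early time (6 and 12 h). edgeR called 0 of 10963 genes in either direction (0% each), limma-voom called 0 and DESeq2 called 3. Without the K422 library at 18 h edgeR called 7 genes and without that at 6 h it called 3, and 0 when any other library was left out. At an unadjusted p under 0.05 there were 864 genes with edgeR, 887 with limma-voom and 633 with DESeq2.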

How the data were processed

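RNA was extracted from cultured cells with NucleoSpin RNA Plus and sequenced by Novogene. Per the authors, HISAT2 aligned the reads to human RefSeq transcripts (GRCh38.p12), and RSEM gave values per gene. No version of either tool is given in the sources used here. The authors deposited expected counts from RSEM, which divides reads shared by similar genes and were rounded here to whole numbers. The deposited TPM values were used as an alternative, and the deposited FPKM values were not used. Of 21112 gene rows, those of 20 symbols listed in duplicate were summed, which left 21092 genes.

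TMM factors (edgeR 4.0.16, R 4.3.3) were computed once over all 30 libraries. Genes were kept by filterByExpr on the 8 DMSO libraries, and 10129 fell below it. edgeR's quasi-likelihood test was fitted with terms for line and time, with Benjamini-Hochberg adjustment over all genes tested. The AZD8186 libraries and the 15 DMSO libraries of the 4 lines were fitted in the same way, and late minus early differences as an interaction. DESeq2 1.42.0, limma 3.58.1, other scalings, filters, thresholds and the omission of each library were alternatives. The fits were tested on simulated data. Library totals (16991176 to 22190876 in HT and K422) limit precision for genes of few counts, and intervals and floors cover counting error only.

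The members and the gene lists were chosen with earlier results of these data known, and the lists were written from general knowledge. Genes were named by this rule: in each direction the 15 largest fitted fold changes among genes called 2-fold, without overlap and with a mean of at least 10 CPM in the higher line, a fixed set with the PI3K, AKT, MYC, BCL2, BCL6, EZH2 and CIITA genes whatever their value, and in each list the 4 genes called 2-fold with the smallest p. Further list members, the genes of chromosome 11, BACH2 and DYRK1B were chosen after their values were seen. GENCODE 29 (GRCh38.p12) gave gene positions and RefSeq (GRCh38.p14) gave promoter windows. Chromosomes X and Y were left out of the chromosome counts. Some genes that the rule or the lists hold are counted but not reported by name here.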

Additional observations from a re-analysis of the deposited data

Results flagged for a closer look

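In all, 92 sets of 4 library values were examined, for genes whose values are given and for library measures such as the total count. Of these sets, 2 held a library far from the others by Dixon's limit, where chance alone gives about 1 in 20. IFITM1 was at 214 CPM in K422 at 6 h, against 153 to 160.0 CPM in the other K422 libraries. MYC was at 162 CPM in HT at 6 h, against 176 to 177 CPM in the other HT libraries. The differences between the lines were larger than these gaps for both genes.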

How the results depend on the processing

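Over 25 alternatives, 3444 of 3466 values of 139 named genes were counted as unchanged. A further 21 kept their direction without the call, and 1 turned round: BCL6 was -0.16 with all 16 libraries of both treatments in 1 fit. A gene called in neither fit was counted as unchanged whatever its sign. The settings with an adjusted p under 0.01 or a fold limit of 1.5 or 4 reuse the main fit. Single genes were counted there with the main limits, so these settings could not change a value and do not test the named genes. The counts of 1552 genes higher in HT and 1569 lower changed to 940 higher with a minimum of 5 CPM in 4 libraries (fewer genes tested), 847 on log2(TPM + 1), 2381 and 2559 at a 1.5-fold limit, and 868 and 711 at a 4-fold limit. A test against 2-fold itself (glmTreat) left 1250 and 1281, and E2F2, LYAR, ODC1 and TET2 were among the genes called 2-fold that it no longer called. The named genes within 2-fold, such as AKT1 and MYC, were not called by it either. Among interferon-stimulated genes 1 was higher in HT on log2(TPM + 1). Among MHC class II genes 1 and among MHC class I genes 4 were higher at 1.5-fold, and 2 class I genes were lower at 4-fold. Where the cause is not named, the cause was not tested.

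Leaving out 1 library at a time gave 1563 to 1647 genes higher in HT and 1574 to 1647 lower in DMSO, and 1520 to 1627 and 1639 to 1709 in AZD8186. For the late minus early difference it gave 0 to 5 and 0 to 3 genes, DESeq2 gave 1 and 2, and no filter gave 33 and 32. Between pairs of lines the counts were 3483 to 3532 (HT and K422), 5339 to 5388 (HT and OCI-Ly10), 5042 to 5108 (HT and TMD8), 5381 to 5440 (OCI-Ly10 and K422), 3626 to 3640 (OCI-Ly10 and TMD8) and 5204 to 5271 (TMD8 and K422). The labels hold no replicate numbers. Libraries of the same time correlated by 0.20, 0.01, 0.13 and 0.25 in their deviations from their line's mean. Between HT and K422 libraries of different times the correlations ran from -0.19 to 0.11. The same-time values at 6, 18 and 24 h lay above that range, and the value at 12 h lay within it. Whether time pairs the libraries was not tested. Without time as a block the counts were 1547 and 1570, and 1517 and 1631 in AZD8186. TMM on the 8 libraries of a treatment alone, TMM without the genes of chromosomes 2, 4, 10, 11 and 14 (1492 higher and 1657 lower) and the alternatives for the pairs of lines were chosen after seeing the data.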

Other observations

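Beyond the stretches of chromosome 11, the window at 90 to 100 Mb of the same chromosome had 13 of 22 genes called lower 2-fold in HT (median -1.22), that at 110 to 120 Mb of chromosome 2 had 16 of 28 (median -1.08) and that at the first 10 Mb of chromosome 4 had 32 of 59 (median -1.05). In AZD8186 the medians of these windows were -1.33, -0.89 and -0.76. In 150 of the 190 windows the median had the same sign in AZD8186.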
